A study of Mus musculus with 18 samples.

Results

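The genes that make, take up, move and store cholesterol were followed in the ovaries of immature female mice. Of 31 such genes listed by their known role, 29 had a probe set of their own on the array, out of 18193 genes with one. Where a gene had several probe sets, the one with the highest mean signal over all 18 arrays stood for it. Acat2, an acetyl-CoA acetyltransferase, and Soat1, which esterifies cholesterol, had no probe set matched to them alone and were not analysed here. The 29 genes were 17 enzymes of synthesis, 5 genes of sterol sensing and control, 5 of uptake, export and transfer, and 2 lipases of ester release.

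Total RNA of ovaries was hybridised to 18 Affymetrix Mouse Genome 430 2.0 arrays, 3 biological replicates in each of 6 groups. Pik3cd+/- and Pik3cd-/- females, all on a mixed C57B6J/S129 background and 21 days old at the start, were left untreated, given PMSG or given E2. The Pik3cd product, p110 delta, is a catalytic chain of phosphoinositide 3-kinase, and the heterozygotes serve here as the genotype controls, so every mouse carried at least 1 mutant copy. PMSG (a single intraperitoneal injection of 10 IU) preceded collection by 44 hours. E2 was injected intraperitoneally 3 times at 24-hour intervals, 0.03 ml each, and the ovaries were taken 72 hours after the first injection. PMSG is a gonadotropin that drives follicle growth in immature mice, and E2 is the usual abbreviation of estradiol. The concentration of E2 is not given in the sources used here. None of the 6 groups is labelled as vehicle-injected, so a difference from untreated ovaries includes injection and the hours that passed, and PMSG and E2 ovaries also differ in time since the first injection. In RNA of ovaries, fewer cells of a type and less RNA per cell cannot be told apart.

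Cholesterol is built from acetyl-CoA through mevalonate to farnesyl diphosphate, then through squalene and lanosterol. When sterols in the endoplasmic reticulum fall, Scap carries the transcription factor SREBP-2, the product of Srebf2, to the Golgi for cleavage, and the released fragment raises transcription of nearly every enzyme of the pathway. Insig proteins hold Scap back when sterols are plentiful. In the ovary cholesterol is also the precursor of every steroid hormone, and steroid-making cells draw on lipoprotein cholesterol taken up through Scarb1, on their own synthesis and on stored esters.

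The upstream sequences of 5 genes are shown because 4 of them changed after PMSG and the fifth, Insig1, is a classical sterol-responsive gene that did not pass the test in any comparison. Each is the 250 bases before the RefSeq start in GRCm38.p6, on the gene's own strand, with matches to 5 searched motifs in capitals. Hmgcs1 makes the HMG-CoA from which mevalonate is formed, Idi1 interconverts the isoprene units, and Cyp51 and Tm7sf2 modify lanosterol and its product. They lie at chr13:119690101-119690350 (plus strand), chr13:8885356-8885605 (plus strand), chr5:4104698-4104947 (minus strand), chr19:6067851-6068100 (minus strand) and chr5:28071162-28071411 (plus strand).
Hmgcs1: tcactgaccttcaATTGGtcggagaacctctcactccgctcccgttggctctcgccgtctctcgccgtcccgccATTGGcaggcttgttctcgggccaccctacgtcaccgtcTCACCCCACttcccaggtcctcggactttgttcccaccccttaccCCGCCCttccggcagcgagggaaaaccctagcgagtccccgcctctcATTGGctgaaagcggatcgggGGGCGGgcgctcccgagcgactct
Idi1: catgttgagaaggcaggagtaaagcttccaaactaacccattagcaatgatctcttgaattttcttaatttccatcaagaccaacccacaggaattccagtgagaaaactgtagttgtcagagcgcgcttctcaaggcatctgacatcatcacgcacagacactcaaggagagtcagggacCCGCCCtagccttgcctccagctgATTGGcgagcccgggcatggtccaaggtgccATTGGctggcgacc
Cyp51: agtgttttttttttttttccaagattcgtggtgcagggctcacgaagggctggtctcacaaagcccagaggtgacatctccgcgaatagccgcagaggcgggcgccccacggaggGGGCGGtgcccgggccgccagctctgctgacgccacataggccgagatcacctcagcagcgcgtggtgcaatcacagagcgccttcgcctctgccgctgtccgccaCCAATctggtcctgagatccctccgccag
Tm7sf2: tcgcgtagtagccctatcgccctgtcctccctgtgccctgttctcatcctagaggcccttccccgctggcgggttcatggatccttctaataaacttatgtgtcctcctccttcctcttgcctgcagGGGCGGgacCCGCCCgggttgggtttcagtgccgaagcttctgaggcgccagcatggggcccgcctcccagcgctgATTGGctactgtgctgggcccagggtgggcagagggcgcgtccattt
Insig1: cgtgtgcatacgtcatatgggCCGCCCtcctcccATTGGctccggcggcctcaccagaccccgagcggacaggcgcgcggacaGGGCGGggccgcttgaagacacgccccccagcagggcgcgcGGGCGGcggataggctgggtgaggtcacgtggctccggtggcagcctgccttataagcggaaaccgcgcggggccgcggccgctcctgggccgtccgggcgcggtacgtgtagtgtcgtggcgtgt

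The motifs, searched on both strands over 250 bases before and 50 after the start, were TCACNCCAC (a sterol regulatory element, SRE), GGGCGG (GC box), CCAAT, TGACGTCA (cyclic AMP response element) and CAAGGTCA (NR5A site). Positions count from the first base after the printed stretch, taken as 0. Matches of different motifs did not overlap in the members' windows. The table held windows of 23 of the 29 measured genes and of 27025 genes in all. Hmgcs1 alone among the 23 held the SRE letters, TCACCCCAC at -137 from the start, against 1.44% of all genes in the table. Only that fixed pattern was searched, so windows without it may still hold elements spelled otherwise. CCAAT stood in 20 of 23 windows (87%), including all 14 synthesis genes with a window and 6 of the 9 others, against 41.1% of all genes. GC boxes stood in 22 of 23 (95.7%) against 38.2%. A gene with several windows counted if any of them matched, and the 27025 genes were not limited to those tested on the arrays. In the printed sequences CCAAT, or ATTGG on the other strand, begins at -45 in Hmgcs1, at -45 and -14 in Idi1, at -29 in Cyp51 and at -47 in Tm7sf2, and only far upstream, at -216, in Insig1. Hmgcs1 has further copies at -237 and -176. Copies near the start also stood in genes that passed the test in no comparison, at -50 and -14 in Mvk and at -60 and -27 in Mvd. Whether the position of CCAAT goes with the response was not tested. The NR5A letters matched 1 window, that of Dhcr7 (1.76% of all genes), and the cyclic AMP response element matched 0 of 23 (2.03% of all genes). These matches describe the letters of the windows and show no binding.

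Signals are the deposited intensities on a linear scale. Differences are on the scale of log2(signal + 8.58), with the standard error of a limma model of the 6 group means, n = 3 arrays in each group, and p-values adjusted over 12713 genes. A gene was called where its adjusted p was under 0.05. Median signals of the 18 arrays lay between 48.4 and 50.9, and mean correlations with group mates ran from 0.9894 to 0.9968, lowest in replicates 2 and 3 of the E2-treated Pik3cd-/- group. In the Pik3cd probe set with the largest difference, signals were 70.03, 69.8 and 61.4 in untreated Pik3cd+/- and 28.8, 23.8 and 26.0 in untreated Pik3cd-/- ovaries, a difference of -1.12 ± 0.11 (adjusted p = 2.6e-04). The brightest Pik3cd probe set gave 0.22 ± 0.14 (adjusted p = 0.41). Whether either lies in the deleted part was not given in the sources used here. The oocyte, granulosa and theca marker lists were measured as a check of the tissue. Their mean log2 levels over 8, 8 and 7 genes were 10.24 ± 0.08, 11.18 ± 0.07 and 9.78 ± 0.08 (SD, n = 3) in untreated Pik3cd+/- ovaries.

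After PMSG, 9 of the 17 synthesis enzymes were higher in Pik3cd+/- ovaries. Relative to untreated ovaries of that genotype, 10 of the 29 genes were higher and 0 lower, where 5.81% of all genes tested were called higher and 11.9% lower. The 10 were these 9 enzymes and the lipoprotein receptor Scarb1. The largest were Scarb1 at 2.22-fold, Msmo1 at 2.13-fold, Tm7sf2 at 1.99-fold and Idi1 at 1.97-fold, on the scale with 8.58 added. The median difference over the 29 genes was 0.34, that over the 17 enzymes 0.62, and that over all genes tested -0.04. The Pik3cd-/- ovaries had 4 genes higher and 0 lower, with 1.71% and 0.684% of all genes called in each direction. These were Sqle, Cyp51, Tm7sf2 and Scarb1, and the member median was 0.27 against -0.02. Cyp51, Tm7sf2 and Scarb1 were called in both genotypes. All 17 enzymes had a difference above 0 in both genotypes, where 5395 and 5919 of all 12713 genes did in Pik3cd+/- and Pik3cd-/- ovaries. The 17 were also above 0 after quantile normalization. None of the 29 responses was shown to differ between genotypes.

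**Figure D1:**
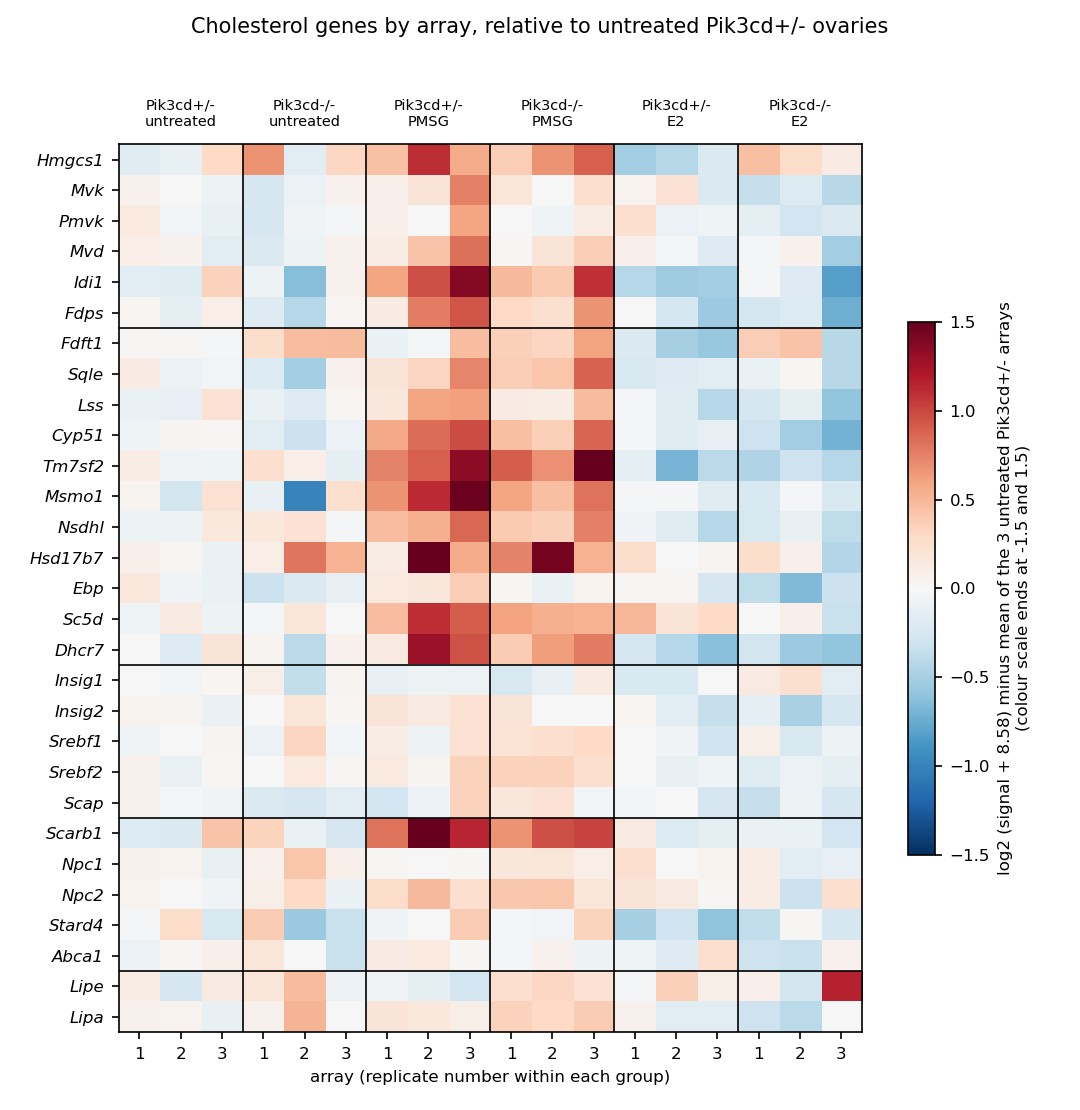
Each row is 1 of the 29 genes, ordered by role, and each column 1 of the 18 arrays. Colour gives log2(signal + 8.58) minus the mean of the 3 untreated Pik3cd+/- arrays, and the synthesis rows are mostly red in both PMSG groups and mostly pale or blue in both E2 groups.

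Among the steps to farnesyl diphosphate, 3 of 6 enzymes rose after PMSG in Pik3cd+/- ovaries. Hmgcs1 read 1560.3, 1638 and 2190.4 in untreated and 2419, 3846 and 2626 in PMSG arrays of that genotype, with no overlap, a difference of 0.71 ± 0.21 (adjusted p = 0.0313). Its Pik3cd-/- arrays overlapped, at 2848, 1576 and 2212 untreated and 2291, 2848 and 3325 after PMSG (0.37 ± 0.21, adjusted p = 0.347). Untreated Pik3cd-/- replicate 1 was as high as the middle PMSG array of that genotype. Idi1 read 371, 370.1 and 536 untreated and 634, 828 and 1106 after PMSG in Pik3cd+/- ovaries, a difference of 0.98 ± 0.25 (adjusted p = 0.0168). Its Pik3cd-/- arrays read 397, 267 and 438 untreated and 589.6, 553 and 904 after PMSG, and were again separate, but the difference of 0.87 did not pass the test (adjusted p = 0.0765). Fdps, the synthase of farnesyl diphosphate, was close to the threshold. Its signals were 1062, 948 and 1116 untreated and 1132, 1779.8 and 2012 after PMSG in Pik3cd+/- ovaries (0.61 ± 0.20, adjusted p = 0.0494), where PMSG replicate 1 stood just above the untreated arrays. Corresponding Pik3cd-/- signals were 911, 768 and 1057 untreated and 1282, 1234 and 1669.5 after PMSG (0.61 ± 0.20, adjusted p = 0.13). Mvk, Pmvk and Mvd, the mevalonate and phosphomevalonate kinases and the decarboxylase, did not pass the test in any comparison. Their PMSG differences in Pik3cd+/- ovaries were 0.34, 0.22 and 0.46 (adjusted p = 0.137, 0.269 and 0.0808).

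Of the 11 squalene and sterol enzymes, 6 rose after PMSG in Pik3cd+/- ovaries and 3 in Pik3cd-/- ovaries. Cyp51, the lanosterol demethylase, read 186, 199 and 197 untreated and 291, 354 and 389 after PMSG in Pik3cd+/- ovaries, a difference of 0.80 ± 0.14 (adjusted p = 0.00216). The Pik3cd-/- arrays went from 172, 153 and 181 to 267, 251 and 361 (0.75 ± 0.14, adjusted p = 0.00997). In both genotypes every PMSG array was above every untreated one. Tm7sf2, a sterol reductase acting on the product of Cyp51, read 86.7, 76.3 and 75.7 untreated and 139, 155 and 215 after PMSG in Pik3cd+/- ovaries (1.00 ± 0.21, adjusted p = 0.00575). Its Pik3cd-/- signals were 95.8, 86.0 and 71.8 untreated and 157, 134 and 260.0 after PMSG (1.00 ± 0.21, adjusted p = 0.0186), again without overlap, and replicate 3 was the highest PMSG array in each genotype.

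Msmo1 and Nsdhl remove the methyl groups next to the sterol hydroxyl, and both rose in Pik3cd+/- ovaries. Msmo1 read 857, 689 and 975 untreated and 1333, 1818 and 2324 after PMSG (1.09 ± 0.25, adjusted p = 0.00897). The Pik3cd-/- arrays read 771, 412 and 988 untreated and 1259, 1142 and 1471 after PMSG, and the difference of 0.91 did not pass the test (adjusted p = 0.0653), with untreated replicate 2 far below the other untreated arrays. Nsdhl read 374, 376 and 442 untreated and 551, 578 and 725 after PMSG in Pik3cd+/- ovaries (0.62 ± 0.13, adjusted p = 0.00701). The Pik3cd-/- arrays read 443, 462 and 392 untreated and 524, 509 and 675 after PMSG (0.38 ± 0.13, adjusted p = 0.144). For both genes the PMSG arrays lay above the untreated arrays in each genotype. Sc5d, the lathosterol oxidase, read 698, 805 and 691 untreated and 1005, 1577 and 1379 after PMSG in Pik3cd+/- ovaries (0.82 ± 0.14, adjusted p = 0.00222). The Pik3cd-/- arrays of Sc5d read 719, 825 and 733 untreated and 1113, 1058 and 1048 after PMSG (0.50 ± 0.14, adjusted p = 0.0743). Dhcr7, the last reductase of a branch of the pathway, read 250.2, 218 and 289 untreated and 276, 626 and 495 after PMSG in Pik3cd+/- ovaries (0.79 ± 0.23, adjusted p = 0.026). Here PMSG replicate 1 fell within the untreated range. Its Pik3cd-/- arrays did not overlap, at 258, 187 and 262 untreated and 329.9, 392 and 437 after PMSG, but the difference of 0.70 missed the threshold (adjusted p = 0.114).

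Sqle, the squalene epoxidase, was the enzyme called in Pik3cd-/- but not in Pik3cd+/- ovaries. It read 375, 302 and 454 untreated and 565, 582 and 806 after PMSG in Pik3cd-/- ovaries (0.78 ± 0.17, adjusted p = 0.0245), and 475, 408 and 422 untreated and 497, 544 and 727 after PMSG in Pik3cd+/- ovaries (0.41 ± 0.17, adjusted p = 0.102). The PMSG arrays were above the untreated ones in both, and the difference between the 2 responses was 0.36 (95% interval -0.15 to 0.87). Lss, the lanosterol synthase, read 169, 166 and 215 untreated and 206, 279 and 283 after PMSG in Pik3cd+/- ovaries (0.46 ± 0.16, adjusted p = 0.0545) and 169, 158 and 186 untreated and 199.8, 197 and 256 after PMSG in Pik3cd-/- ovaries (0.32 ± 0.16, adjusted p = 0.274). Ebp, the sterol isomerase, read 713, 617 and 596 untreated and 709.9, 722 and 832 after PMSG in Pik3cd+/- and 509.7, 549 and 587 untreated and 655, 595 and 664 after PMSG in Pik3cd-/- ovaries. Neither Lss nor Ebp passed the test after PMSG by its brightest probe set, though a dimmer one of Lss was called in Pik3cd+/- ovaries, as given below. Fdft1, the squalene synthase, did not pass the test (0.12 and 0.03 in Pik3cd+/- and Pik3cd-/-, adjusted p = 0.707 and 0.957). Hsd17b7, the sterol ketone reductase, did not pass by its brightest probe set either and had 1 high array there. Its Pik3cd+/- PMSG signals were 432, 2062 and 594 against 421, 410.3 and 371 untreated (1.00 ± 0.41, adjusted p = 0.0978).

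**Figure D2:**
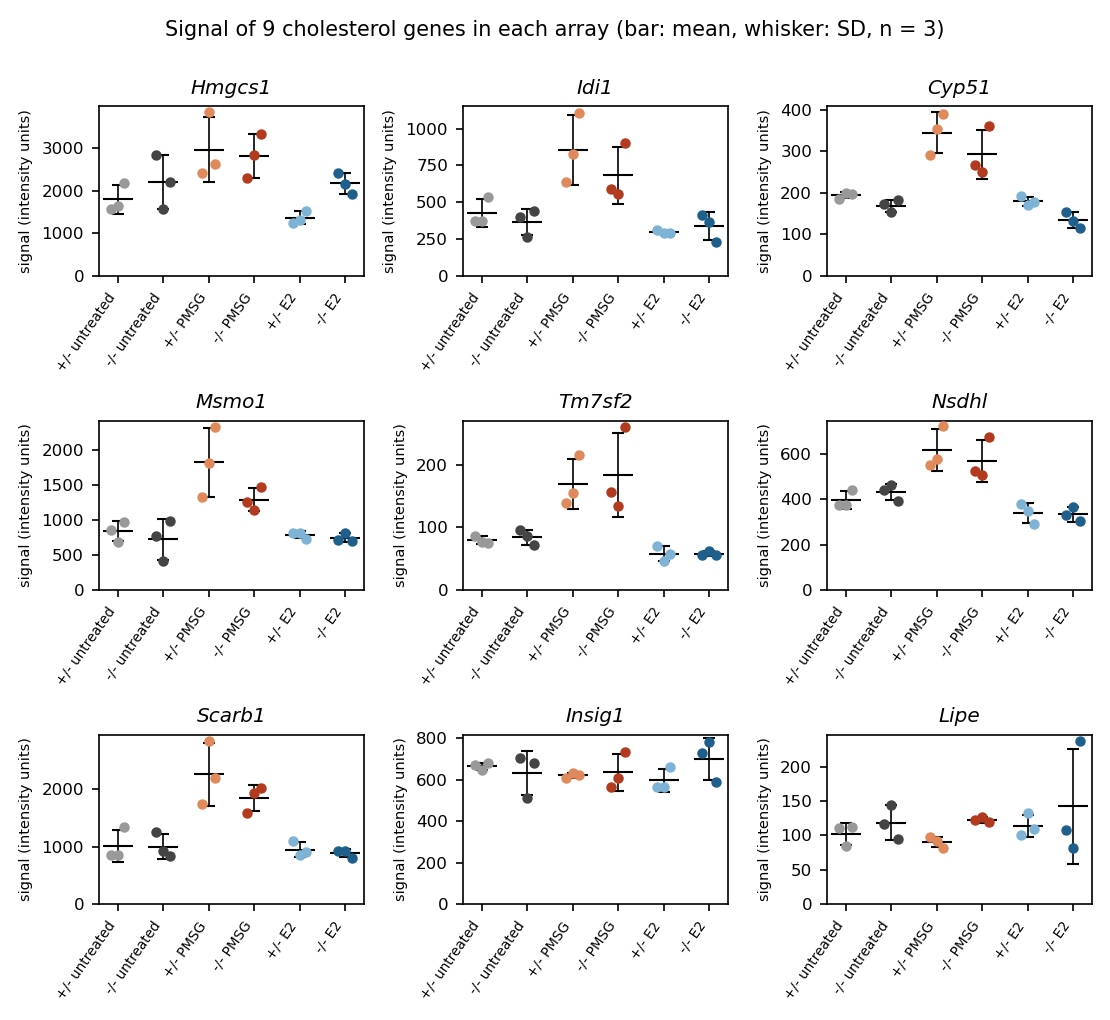
Signals of 9 genes on a linear axis that starts at 0, 1 point for each array, with group mean and SD (n = 3). Cyp51, Tm7sf2, Msmo1, Nsdhl, Idi1 and Scarb1 have all PMSG arrays above the untreated arrays of the same genotype, whereas Insig1 and Lipe do not.

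In most groups the same array was high or low for most synthesis enzymes. Over the 17 enzymes the mean log2 level was 8.87, 9.33 and 9.42 in the 3 PMSG-treated Pik3cd+/- arrays and 8.59, 8.52 and 8.63 in untreated ones. In Pik3cd-/- ovaries it was 8.95, 8.97 and 9.24 after PMSG and 8.56, 8.44 and 8.67 untreated. Replicate 1 was the lowest of the PMSG-treated Pik3cd+/- arrays in 16 of 17 enzymes, and replicate 3 the highest in 13. Among PMSG-treated Pik3cd-/- arrays replicate 3 was the highest in 15. Elsewhere, replicate 3 was the highest untreated Pik3cd-/- array in 12 enzymes, replicate 1 the highest E2-treated Pik3cd+/- array in 12, and replicate 3 the lowest E2-treated Pik3cd-/- array in 14. The SD of the mean level was 0.06 untreated, 0.29 after PMSG and 0.11 after E2 in Pik3cd+/- ovaries, and 0.12, 0.16 and 0.18 in Pik3cd-/- ovaries. Enzymes measured in the same array share its RNA, so these counts describe arrays and are not independent observations.

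Single arrays decided part of the PMSG counts. The 10 calls in Pik3cd+/- ovaries became 6 without untreated replicate 1 and 6 without untreated replicate 2. The calls for Cyp51, Msmo1, Nsdhl, Sc5d, Tm7sf2 and Scarb1 held whichever of the 18 arrays was left out, with adjusted p at most 0.0443. Those for Hmgcs1, Idi1, Dhcr7 and Fdps each ended without some array, with adjusted p up to 0.149, 0.075, 0.128 and 0.16. In Pik3cd-/- ovaries the 4 calls became 0 without PMSG replicate 3, 1 without untreated replicate 2, 2 without PMSG replicate 2 and 7 without E2 replicate 3, an array that enters only the estimate of spread. Cyp51 ended there only without PMSG replicate 3 (adjusted p = 0.0502), and Sqle, Tm7sf2 and Scarb1 reached 0.135, 0.0826 and 0.12. With only the groups compared in the model, the Pik3cd-/- calls were 2.

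Uptake was represented by Scarb1, the receptor for high-density lipoprotein, which rose in both genotypes. It read 854, 851 and 1333 untreated and 1744, 2831 and 2189 after PMSG in Pik3cd+/- ovaries (1.15 ± 0.20, adjusted p = 0.00216). In Pik3cd-/- ovaries it read 1247, 919 and 832 untreated and 1578, 1935 and 2014 after PMSG (0.89 ± 0.20, adjusted p = 0.0251). Every PMSG array exceeded every untreated array of its genotype. The other genes of the group did not pass the test in any comparison by their brightest probe sets. A dimmer one of Npc2 was called after PMSG in Pik3cd+/- ovaries, as given below. Npc2, which with Npc1 releases cholesterol from lysosomes, differed by 0.34 after PMSG in Pik3cd+/- ovaries (adjusted p = 0.0791), and Npc1 by 0.01 (adjusted p = 0.948). The sterol carrier Stard4 differed by 0.11 and the exporter Abca1 by 0.10 (adjusted p = 0.743 and 0.655).

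None of the 5 sensing and control genes passed the test after PMSG in either genotype by its brightest probe set. Dimmer probe sets of Srebf2 and Insig2 were called higher, as given below. Insig1, which retains Scap in the endoplasmic reticulum, read 670.2, 647 and 679.6 untreated and 608, 631 and 624 after PMSG in Pik3cd+/- ovaries, all PMSG arrays being slightly lower (-0.10 ± 0.13, adjusted p = 0.631). Its Pik3cd-/- signals overlapped, at 707, 512 and 682 untreated and 563, 609.7 and 734 after PMSG (0.01 ± 0.13, adjusted p = 0.978). The 95% interval of the Insig1 difference in Pik3cd+/- ovaries was -0.37 to 0.17. Estimates of the 17 enzymes ran there from 0.12 to 1.09. Whether the Insig1 response differed from that of an enzyme was not tested. Srebf2 read 172, 152 and 167 untreated and 181, 168 and 209.8 after PMSG in Pik3cd+/- ovaries and 165, 182 and 165 untreated and 210.5, 210.0 and 196 after PMSG in Pik3cd-/- ovaries, differences of 0.18 ± 0.08 (adjusted p = 0.15) and 0.26 ± 0.08 (adjusted p = 0.114). Insig2, the second Insig gene, read 411, 408 and 369.5 untreated and 453, 434 and 466 after PMSG in Pik3cd+/- ovaries (0.18 ± 0.10, adjusted p = 0.234), and 395, 449 and 399.6 untreated and 454, 395 and 394 after PMSG in Pik3cd-/- ovaries (0.00 ± 0.10, adjusted p = 1). Srebf1, whose SREBP-1 proteins act mainly on fatty acid genes, differed by 0.09 and 0.19, and Scap by -0.01 and 0.32 (adjusted p from 0.185 to 0.956).

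Storage was covered by 2 lipases. Lipa, the lysosomal acid lipase that frees cholesterol from lipoprotein esters, read 383, 378 and 337 untreated and 418, 409.7 and 389 after PMSG in Pik3cd+/- ovaries and 382, 524 and 366 untreated and 465, 451 and 479.6 after PMSG in Pik3cd-/- ovaries, differing by 0.15 and 0.15 (adjusted p = 0.441 and 0.546). Lipe, the hormone-sensitive lipase, which hydrolyses stored esters and is abundant in fat cells, did not pass the test in any comparison. It read 110.3, 84.2 and 113 untreated and 97.6, 91.4 and 82.1 after PMSG in Pik3cd+/- ovaries (-0.16 ± 0.26, adjusted p = 0.71). Its highest signal in the series was 237 in E2-treated Pik3cd-/- replicate 3, where the group read 108, 82.1 and 237. Over 5 adipocyte markers, among them Adipoq, Fabp4 and Cidec, the mean log2 level of the same 3 arrays was 8.79, 5.08 and 10.64. Across all 18 arrays that level ran from 5.08 to 10.64, both ends in that group. Its part in the Lipe signal was not tested.

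**Figure D3:**
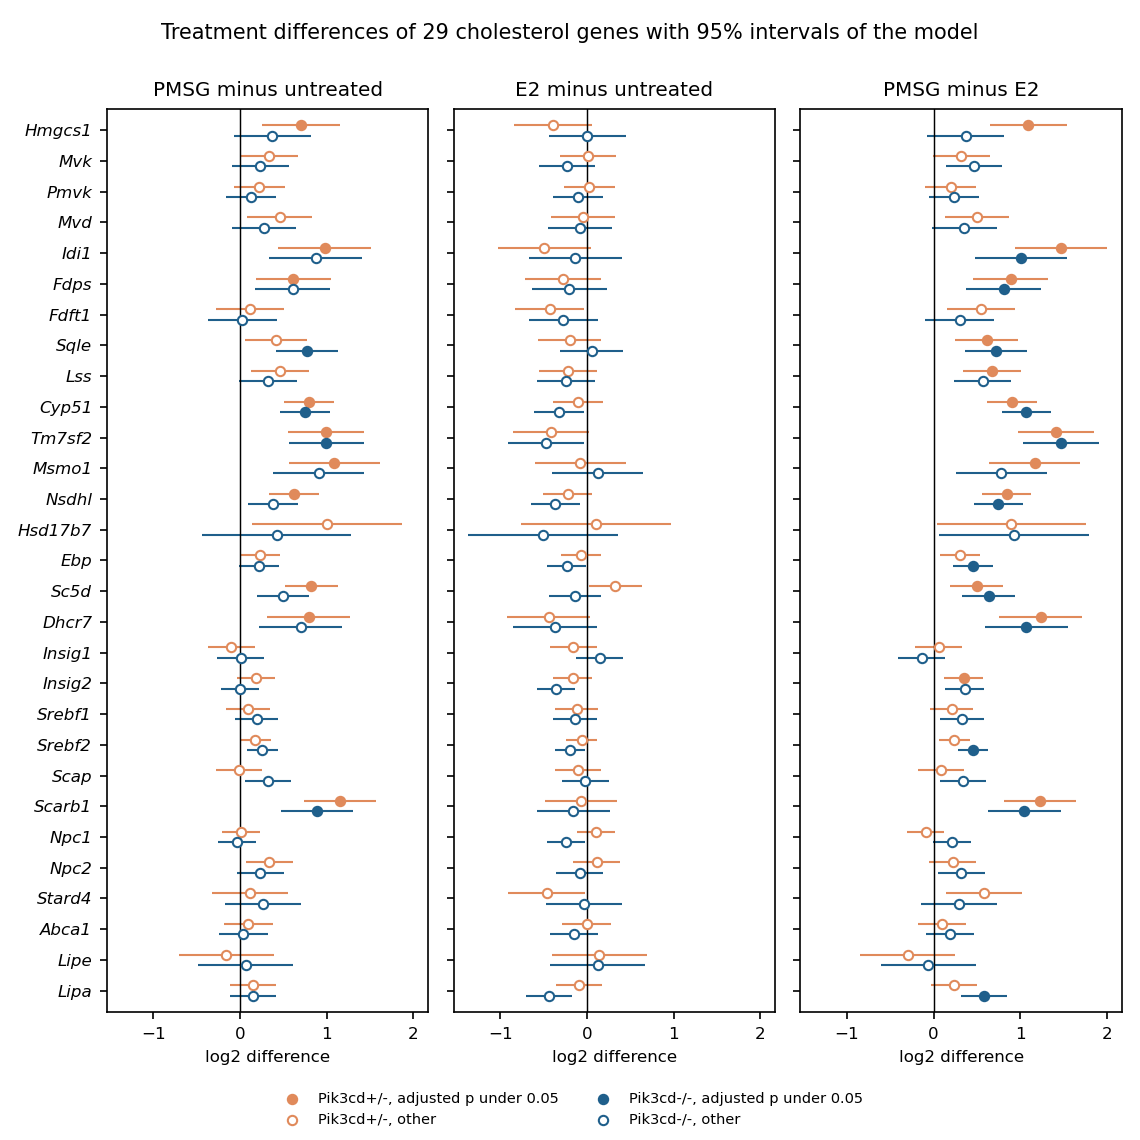
Log2 differences of the 29 genes with 95% intervals for PMSG against untreated, E2 against untreated and PMSG against E2, Pik3cd+/- in orange and Pik3cd-/- in blue, with filled points where adjusted p was under 0.05. The enzyme rows lie to the right of 0 in the left and right panels in both genotypes, and 0 points are filled in the E2 panel.

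After E2 none of the 29 genes passed the test in either genotype. Over all genes tested, 1.62% and 0.0551% were called in either direction in Pik3cd+/- and Pik3cd-/- ovaries. By limma, 3 of the 29 had an unadjusted p under 0.05 in Pik3cd+/- and 8 in Pik3cd-/- ovaries. At that looser threshold were 2160 and 1862 of all 12713 genes tested. The median difference of the 17 enzymes was -0.20 in Pik3cd+/- and -0.23 in Pik3cd-/- ovaries, against 0.00 and -0.05 over all genes. With only the compared groups in the model, 1 gene was called in Pik3cd+/- ovaries. Differences over the 29 ran from -0.49 (Idi1) to 0.33 (Sc5d) in Pik3cd+/- ovaries and from -0.50 (Hsd17b7) to 0.15 (Insig1) in Pik3cd-/- ovaries.

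PMSG and E2 ovaries were also set directly against each other. In Pik3cd+/- ovaries 13 of the 29 genes were higher after PMSG than after E2 and 0 lower (3.54% and 7.65% of all genes), 11 of them enzymes. In Pik3cd-/- ovaries 12 were higher and 0 lower (3.33% and 0.779% of all genes), 9 of them enzymes. Idi1, Fdps, Sqle, Cyp51, Tm7sf2, Nsdhl, Sc5d, Dhcr7 and Scarb1 were called in both genotypes. The member medians were 0.50 and 0.45, against -0.06 and 0.02 over all genes tested. This comparison uses the same PMSG arrays as the comparison with untreated ovaries, so the calls are not independent of those above. Likewise, the PMSG and E2 differences of a genotype share its untreated arrays, and the genotype and interaction terms reuse the same 18 arrays. Of the 17 enzymes, 14 had their 2 highest group means in the PMSG groups, as did 5 of the other 12 genes and 10.99% of all genes tested. The lowest mean was in an E2 group for 15 of the 17 enzymes, 10 of the other 12 and 35.94% of all genes tested.

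In the E2 arrays Hmgcs1 read 1236, 1320.0 and 1529 in Pik3cd+/- and 2424, 2149.9 and 1932 in Pik3cd-/- ovaries, Idi1 309, 288 and 292 in Pik3cd+/- and 412, 366 and 232 in Pik3cd-/- ovaries and Fdps 1034, 862 and 708 in Pik3cd+/- and 865, 899 and 623 in Pik3cd-/- ovaries. Their PMSG minus E2 differences in Pik3cd+/- ovaries were 1.09 ± 0.21 (adjusted p = 0.00458), 1.47 ± 0.25 (adjusted p = 0.0023) and 0.89 ± 0.20 (adjusted p = 0.012). In Pik3cd-/- ovaries they were 0.37, 1.01 and 0.81 (adjusted p = 0.369, 0.0346 and 0.0366). PMSG and E2 arrays of these 3 genes did not overlap, except for Hmgcs1 in Pik3cd-/- ovaries. After E2 Sqle read 366, 379 and 388 in Pik3cd+/- and 404, 442 and 323 in Pik3cd-/- ovaries and Lss 178, 159 and 133 in Pik3cd+/- and 151, 165 and 118 in Pik3cd-/- ovaries. The PMSG minus E2 differences were 0.61 ± 0.17 (adjusted p = 0.0309) and 0.72 ± 0.17 (adjusted p = 0.0247) for Sqle, and for Lss 0.67 ± 0.16 (adjusted p = 0.0129) and 0.56 ± 0.16 (adjusted p = 0.0572), in Pik3cd+/- and Pik3cd-/- order. Only the last of these missed the threshold.

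Of the later enzymes, Cyp51 read 192, 170.2 and 177 in Pik3cd+/- and 155, 132 and 116 in Pik3cd-/- ovaries after E2, and Tm7sf2 71.2, 45.8 and 58.0 in Pik3cd+/- and 55.6, 62.3 and 56.7 in Pik3cd-/- ovaries. Cyp51 was higher after PMSG by 0.90 ± 0.14 (adjusted p = 9.7e-04) in Pik3cd+/- and 1.07 ± 0.14 (adjusted p = 3.0e-04) in Pik3cd-/- ovaries, and Tm7sf2 by 1.41 ± 0.21 (adjusted p = 8.3e-04) and 1.47 ± 0.21 (adjusted p = 7.0e-04). These had the smallest adjusted p among the 29 genes in the comparison. Msmo1 read 813, 819.9 and 734 in Pik3cd+/- and 711, 818 and 707 in Pik3cd-/- ovaries after E2. Its PMSG minus E2 difference was 1.17 ± 0.25 (adjusted p = 0.00771) in Pik3cd+/- ovaries, and 0.78 ± 0.25 (adjusted p = 0.0917) in Pik3cd-/- ovaries, which did not pass the test. Nsdhl read 382, 348 and 293 in Pik3cd+/- and 333, 367 and 302 in Pik3cd-/- ovaries after E2, with PMSG differences of 0.84 ± 0.13 (adjusted p = 0.00137) and 0.75 ± 0.13 (adjusted p = 0.00506). Dhcr7, at 209, 184 and 159 in Pik3cd+/- and 206, 169 and 164 in Pik3cd-/- ovaries, was higher after PMSG by 1.23 ± 0.23 (adjusted p = 0.00342) and 1.07 ± 0.23 (adjusted p = 0.0138). In none of these 5 genes did a PMSG array fall within the E2 arrays of its genotype. Sc5d read 1033, 836 and 900.1 in Pik3cd+/- and 733, 769 and 578 in Pik3cd-/- ovaries after E2. The PMSG difference of 0.49 ± 0.14 (adjusted p = 0.0361) in Pik3cd+/- ovaries was called although the arrays overlapped, and that in Pik3cd-/- ovaries was 0.63 ± 0.14 (adjusted p = 0.0189).

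Outside synthesis, Scarb1 read 1089, 856 and 898 in Pik3cd+/- and 922, 924 and 809 in Pik3cd-/- ovaries after E2, and was higher after PMSG by 1.22 ± 0.20 (adjusted p = 0.00146) and 1.04 ± 0.20 (adjusted p = 0.00682). Insig2 was called in Pik3cd+/- ovaries (0.35 ± 0.10, adjusted p = 0.0451), where E2 arrays read 403, 353 and 309. The Pik3cd-/- arrays read 356, 280.1 and 332 and gave a difference of 0.36 ± 0.10 (adjusted p = 0.0725). Srebf2, with E2 signals of 162, 151 and 156 in Pik3cd+/- and 142, 153 and 148 in Pik3cd-/- ovaries, differed by 0.24 ± 0.08 (adjusted p = 0.0765) in Pik3cd+/- and 0.45 ± 0.08 (adjusted p = 0.00598) in Pik3cd-/- ovaries. Lipa, with E2 signals of 383, 323 and 327 in Pik3cd+/- and 293, 273 and 364 in Pik3cd-/- ovaries, differed by 0.24 ± 0.13 (adjusted p = 0.239) and 0.58 ± 0.13 (adjusted p = 0.016). Ebp, with E2 signals of 646, 654 and 537 in Pik3cd+/- and 488, 402 and 511 in Pik3cd-/- ovaries, differed by 0.30 ± 0.11 (adjusted p = 0.0857) and 0.45 ± 0.11 (adjusted p = 0.0281). Calls made in 1 genotype only do not show that the genotypes differ.

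The Pik3cd-/- count leaned on several arrays. It was 12 with all arrays, 5 without PMSG replicate 3, and 7 each without PMSG replicate 1, PMSG replicate 2 or E2 replicate 2, all of that genotype. Without E2 replicates 2 and 3 together, the arrays with the lowest correlations and the extreme adipocyte levels, it was 2, namely Cyp51 and Tm7sf2, from a single remaining E2 array whose spread is assumed to be that of the other groups. With only the compared groups in the model it was 7. The Pik3cd+/- count of 13 became 8 without PMSG replicate 2. Cyp51, Tm7sf2, Nsdhl and Scarb1 kept their calls in both genotypes whichever single array was left out, with adjusted p at most 0.0375.

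Between the genotypes few members differed. In untreated ovaries 0 of 29 were called (2.17% of all genes) and 1, Fdft1, had an unadjusted limma p under 0.05. After PMSG 0 were called (4.13% of all genes), with Ebp the 1 gene at an unadjusted p under 0.05, and 1 call with only the compared groups in the model. The Pik3cd-/- minus Pik3cd+/- differences after PMSG were -0.24 (95% interval -0.52 to 0.05) for Cyp51, -0.47 (95% interval -0.99 to 0.06) for Msmo1 and -0.27 (95% interval -0.69 to 0.15) for Scarb1. After E2, Hmgcs1 was higher in Pik3cd-/- ovaries (0.67 ± 0.21, adjusted p = 0.0414) and Ebp lower (-0.39 ± 0.11, adjusted p = 0.0263), with 4.85% of all genes called higher and 12.0% lower. For Hmgcs1 and Ebp the 3 arrays of 1 genotype lay apart from those of the other. An unadjusted limma p under 0.05, a looser threshold than that of these shares, was reached by 6 of the 29. The other 3 tested probe sets of Hmgcs1 differed by 0.09, 0.45 and 0.05, with adjusted p = 0.688, 0.0767 and 0.845, so the Hmgcs1 call rests on 1 of its 4 tested probe sets. The count of 2 became 0 when E2-treated replicate 1 or 2 of either genotype was left out, 1 without untreated Pik3cd+/- replicate 2 or PMSG-treated Pik3cd-/- replicate 2, and 4 without PMSG-treated Pik3cd+/- replicate 1 or 3. Hmgcs1 reached an adjusted p of 0.14 and Ebp 0.103. With only the compared groups in the model both calls were lost.

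Oocyte markers differed between the genotypes in the same arrays. Of 8 oocyte genes, 4 were higher in Pik3cd-/- ovaries when untreated, 7 after PMSG and 8 after E2. Over all genes tested, 2.17% untreated and 4.13% after PMSG were called in either direction, and 4.85% were called higher after E2. Zp3 was called in each of these comparisons, and Gdf9 after PMSG and after E2 only. After E2 the arrays of the genotypes overlapped for Bmp15 and Oosp1. The mean log2 level of the 8 after E2 was 10.92, 10.996 and 10.12 in Pik3cd-/- and 9.78, 9.60 and 9.69 in Pik3cd+/- arrays. Its part in the Hmgcs1 and Ebp differences was not tested.

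The interaction terms ask whether a response differed between genotypes. For PMSG 0 of 29 genes were called (0% of 12713 genes), 0 of the 29 had an unadjusted limma p under 0.05, and the smallest adjusted p was 0.579. Estimates ran from -0.58 (Hsd17b7) to 0.36 (Sqle). For Cyp51 the Pik3cd-/- response minus the Pik3cd+/- response was -0.04 (95% interval -0.45 to 0.36), for Tm7sf2 0.00 (95% interval -0.62 to 0.62), for Scarb1 -0.26 (95% interval -0.85 to 0.33), for Hmgcs1 -0.33 (95% interval -0.96 to 0.30) and for Sc5d -0.33 (95% interval -0.75 to 0.10). These intervals include differences as large as a good part of the response itself, so the larger number of calls in Pik3cd+/- ovaries does not show a larger response there. For E2 0 were called (0% of 12713 genes) and 2 of the 29 had an unadjusted p under 0.05, Npc1 at -0.35 (95% interval -0.66 to -0.04) and Sc5d at -0.47 (95% interval -0.89 to -0.04), both with adjusted p = 0.671.

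Of the 29 genes, 20 had more than 1 probe set, 66 in all, and the further ones were fitted over every probe set with 1 gene symbol. For PMSG in Pik3cd+/- ovaries the tested probe sets of Hmgcs1 (4), Sc5d (3), Scarb1 (3), Cyp51 (2) and Idi1 (2) were all called higher. Scarb1 was called in all 3 in Pik3cd-/- ovaries too, at 1.03 (adjusted p = 0.00966) and 0.98 (adjusted p = 0.0321) in the dimmer pair. The second probe set of Srebf2 was called after PMSG in both genotypes, 0.33 (adjusted p = 0.0487) and 0.44 (adjusted p = 0.0453), where the brighter one was not. A dimmer probe set of each of Insig2, Lss, Npc2 and Hsd17b7 was called in Pik3cd+/- ovaries, at 0.48 (adjusted p = 0.0303), 0.63 (adjusted p = 0.047), 0.48 (adjusted p = 0.0364) and 1.02 (adjusted p = 0.0414). Another Insig2 probe set was lower in Pik3cd-/- than in Pik3cd+/- ovaries after E2, -0.32 (adjusted p = 0.0206). The dimmer probe sets named here were picked because they were called. The share called over all probe sets of that fit was not worked out, so these calls have no background beside them. Probe sets whose identifier ends in x or s can also bind other transcripts.

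Fatty acid synthesis, which SREBP-1 controls, rose in part after PMSG. Of 18 such genes tested, 9 were higher and 0 lower in Pik3cd+/- ovaries, with a median of 0.40, and 4 were higher and 0 lower in Pik3cd-/- ovaries, with a median of 0.24. Over all genes tested, 5.81% were called higher and 11.9% lower in Pik3cd+/- ovaries (median -0.04), and 1.71% and 0.684% in Pik3cd-/- ovaries (median -0.02). The 9 became 4 without untreated Pik3cd+/- replicate 1 and 5 without untreated Pik3cd+/- replicate 2. Fads2, a desaturase of polyunsaturated fatty acids, read 173, 165 and 181 untreated and 579.6, 557 and 845 after PMSG in Pik3cd+/- ovaries (1.86 ± 0.21, adjusted p = 2.1e-04), and 258, 219.5 and 159 untreated and 701, 733 and 1151 after PMSG in Pik3cd-/- ovaries (1.97 ± 0.21, adjusted p = 1.8e-04). Fads1, the partner desaturase, rose by 1.12 ± 0.14 (adjusted p = 3.4e-04) and 1.36 ± 0.14 (adjusted p = 1.8e-04). The NADPH-producing malic enzyme Me1 rose by 1.09 ± 0.20 (adjusted p = 0.00312) in Pik3cd+/- ovaries. Mid1ip1, a regulator of acetyl-CoA carboxylase, rose by 0.38 ± 0.11 (adjusted p = 0.0276) in Pik3cd+/- and 0.67 ± 0.11 (adjusted p = 0.00559) in Pik3cd-/- ovaries. The first of these ended without PMSG replicate 3, where the difference was 0.24, or without untreated replicate 1 or 2 (adjusted p up to 0.1). After E2 0 of 18 were called in either genotype. At an unadjusted limma p under 0.05 were 2 and 5 of the 18 in Pik3cd+/- and Pik3cd-/- ovaries. The counts over all 12713 genes tested were 2160 and 1862.

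Genes that turn cholesterol into steroids had larger median differences than the genes that supply it. Of 7 tested, 4 rose after PMSG in each genotype, with medians of 1.60 and 1.60, where 5.81% and 1.71% of all genes were called higher. Cyp17a1, which makes androgens, rose by 3.17 ± 0.61 (adjusted p = 0.00396) and 3.86 ± 0.61 (adjusted p = 0.00391) in Pik3cd+/- and Pik3cd-/- ovaries, the side-chain cleavage enzyme Cyp11a1 by 2.50 ± 0.46 (adjusted p = 0.00312) and 2.76 ± 0.46 (adjusted p = 0.00601), and its electron donor Fdx1 by 1.60 ± 0.18 (adjusted p = 2.1e-04) and 1.60 ± 0.18 (adjusted p = 3.2e-04). Star, which delivers cholesterol to mitochondria, read 155, 104 and 88.0 untreated and 198, 2011 and 384 after PMSG in Pik3cd+/- ovaries (2.18 ± 0.56, adjusted p = 0.017), with PMSG replicate 2 far above the others. Without that array the difference was 1.23, and without untreated replicate 2 the call ended (adjusted p = 0.0535). Star differed in Pik3cd-/- ovaries by 1.84 (adjusted p = 0.092). Cyp17a1, Cyp11a1 and Star also mark theca and interstitial cells. Of 7 theca and interstitial markers, 3 were higher and 3 lower after PMSG in Pik3cd+/- ovaries, the lower ones being Gli1, Ptch1 and Nr2f2. In Pik3cd-/- ovaries 2 were higher and 0 lower. The shares of all genes called lower were 11.9% in Pik3cd+/- and 0.684% in Pik3cd-/- ovaries. The mean level of the 7 was 10.43, 10.93 and 10.76 after PMSG and 9.69, 9.80 and 9.85 untreated in Pik3cd+/- ovaries. Its part in the enzyme differences was not tested.

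**Figure D4:**
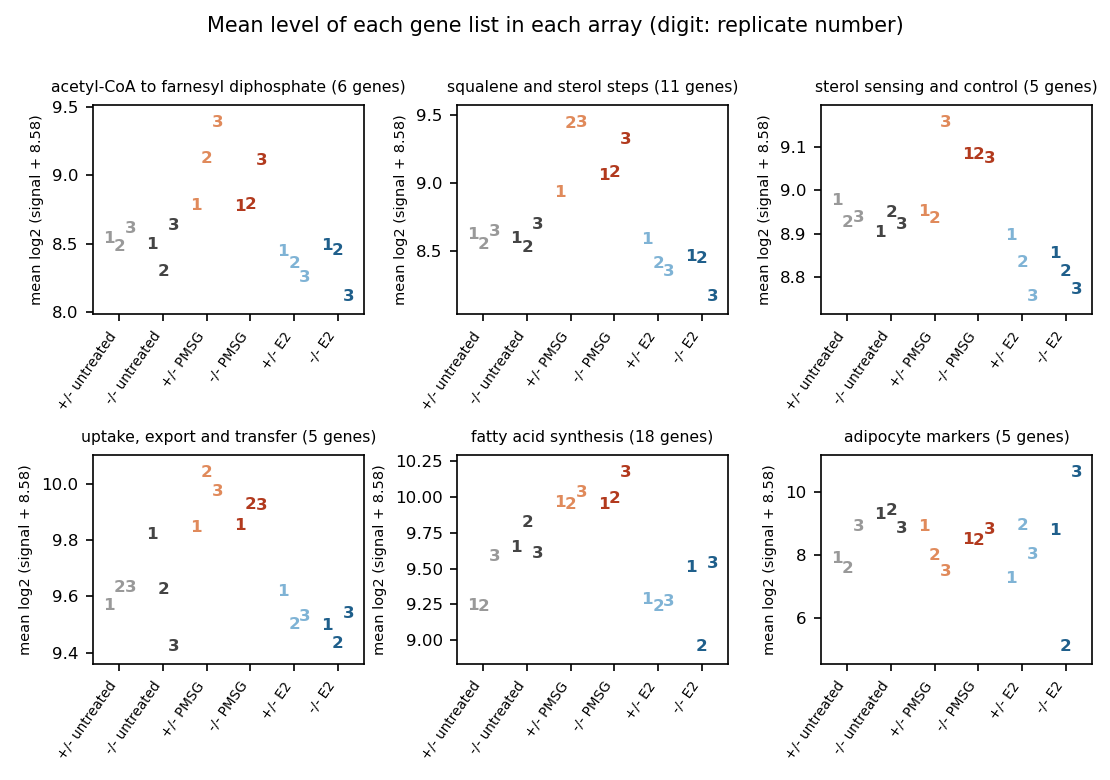
Mean log2(signal + 8.58) over the genes of 6 lists in each array, drawn as the replicate number. The first pair of panels, the synthesis steps, are highest in the PMSG groups of both genotypes, fatty acid synthesis likewise, and the adipocyte panel shows replicates 2 and 3 of the E2-treated Pik3cd-/- group at its lowest and highest points.

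The other lists of sterol handling gave 0 to 2 calls in a direction after PMSG, where 5.81% of all genes were called higher and 11.9% lower in Pik3cd+/- ovaries, and 1.71% and 0.684% in Pik3cd-/- ovaries. In lipoprotein uptake, 2 of 11 genes were higher and 2 lower in Pik3cd+/- ovaries. Lipg, the endothelial lipase that acts on high-density lipoprotein, rose by 2.11 ± 0.26 (adjusted p = 3.0e-04) and by 1.41 ± 0.26 (adjusted p = 0.0122) in Pik3cd+/- and Pik3cd-/- ovaries. Pdzk1, the adaptor of Scarb1, fell by 0.71 in Pik3cd+/- ovaries (adjusted p = 0.00841). It was also higher in Pik3cd-/- than in Pik3cd+/- ovaries after PMSG (0.998, adjusted p = 0.00418) and after E2 (0.67, adjusted p = 0.0133). The oocyte markers Zp3 and Gdf9 were called in the same directions in these 3 comparisons. The part of oocytes in the Pdzk1 signal was not tested. Among 8 oxysterol and LXR genes, 2 were higher in Pik3cd+/- and 1 in Pik3cd-/- ovaries. Cyp27a1, a sterol hydroxylase, rose by 1.41 ± 0.20 (adjusted p = 6.8e-04) in Pik3cd+/- ovaries, and the phospholipid acyltransferase Lpcat3 by 0.34 ± 0.08 (adjusted p = 0.0127) and 0.38 ± 0.08 (adjusted p = 0.0245). Among 10 other SREBP regulators 1 was higher, the ubiquitin ligase Rnf145 in Pik3cd+/- ovaries (0.58 ± 0.09, adjusted p = 0.00129), and 0 of 10 in Pik3cd-/- ovaries. In each genotype 0 of 14 lipid droplet and ester hydrolysis genes were called, with 1 at an unadjusted limma p under 0.05. Intracellular sterol transport gave 1 lower gene of 13 in Pik3cd+/- ovaries, Osbpl5 (-0.53 ± 0.12, adjusted p = 0.011), and 1 higher in Pik3cd-/- ovaries, Gramd1b (0.78 ± 0.18, adjusted p = 0.028). Non-sterol isoprenoid synthesis gave 1 of 10, Ggps1 in Pik3cd+/- ovaries (0.64 ± 0.21, adjusted p = 0.0434), and 0 of 10 in Pik3cd-/- ovaries. Some of these calls ended when a single array was left out. They were those of Ggps1, Osbpl5 and Gramd1b, and of Lipg and Lpcat3 in Pik3cd-/- ovaries. Their adjusted p rose up to 0.134, 0.054, 0.104, 0.0603 and 0.099. The remaining lipoprotein uptake calls in Pik3cd+/- ovaries, Lrp8 (higher, with overlapping arrays) and Lrp1 (lower), ended too, with adjusted p up to 0.154 and 0.126.

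Markers of other cells were also called after PMSG, where the shares of all genes called higher and lower were 5.81% and 11.9% in Pik3cd+/- and 1.71% and 0.684% in Pik3cd-/- ovaries. Of 10 macrophage genes, 5 were higher in Pik3cd+/- and 0 in Pik3cd-/- ovaries, with group means of 6.67 ± 0.11 untreated and 7.63 ± 0.39 after PMSG in Pik3cd+/- ovaries (log2 level, SD, n = 3). The Pik3cd-/- means were 7.28 ± 0.38 and 7.54 ± 0.20, and no marker was called in the PMSG by genotype interaction, where 0 of 12713 genes were. The 5 became 0 without PMSG-treated Pik3cd+/- replicate 1, 1 without PMSG replicate 2 or any 1 untreated array of that genotype, 8 without E2-treated Pik3cd-/- replicate 3 and 10 without E2-treated Pik3cd-/- replicate 2. It became 3 without any 1 of the E2-treated Pik3cd+/- or PMSG-treated Pik3cd-/- arrays, untreated Pik3cd-/- replicates 1 or 3, or E2-treated Pik3cd-/- replicate 1. Of 8 oocyte genes, 6 were lower in Pik3cd+/- and 0 in Pik3cd-/- ovaries, with 10.24 ± 0.08 untreated and 9.43 ± 0.10 after PMSG in Pik3cd+/- ovaries and 10.92 ± 0.15 and 10.50 ± 0.06 in Pik3cd-/- ovaries. The 0 became 4 without E2-treated Pik3cd-/- replicate 3 and 1 without untreated Pik3cd-/- replicate 1. Of 8 granulosa genes, 1 was higher and 2 were lower in Pik3cd+/- ovaries, and 1 was higher in Pik3cd-/- ovaries. The 2 lower became 0 without untreated replicate 1 or PMSG replicate 1 of Pik3cd+/- ovaries and 1 without untreated replicate 2 or 3 or PMSG replicate 2, and the 1 higher became 0 without untreated replicate 1 or 2. None of 5 adipocyte genes was called after PMSG in either genotype, with 0 at an unadjusted limma p under 0.05 in each. Among PMSG-treated Pik3cd+/- arrays the macrophage level was 7.998, 7.67 and 7.22 in replicates 1, 2 and 3, where that of the 17 synthesis enzymes was 8.87, 9.33 and 9.42. Replicate 1 was also the highest of these arrays for the 5 adipocyte markers, at 8.92, 7.999 and 7.49, and for the 2 oviduct epithelium markers tested, at 9.65, 7.33 and 6.56. Its signal of the oviduct gene Ovgp1 was 3987, against 225 and 71.4 in replicates 2 and 3. Without that array the members called for PMSG in Pik3cd+/- ovaries were 13. In untreated Pik3cd+/- ovaries Ovgp1 read 23.9, 1170 and 241, highest in replicate 2. The lower count of members called without that untreated array is given above. The part of these cells in the cholesterol gene differences was not tested.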

How the data were processed

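The authors deposited 1 intensity value per probe set and array on a linear scale, for which MAS5 is named without a version, per the submitters' processing notes. The exact scaling is not given in the sources used here, and no further normalization was applied. With 3 arrays a group, precision is limited by their number. Of 45101 probe sets, 34945 carried 1 gene symbol, and the brightest stood for each of 18193 genes. Values were analysed as log2(signal + 8.58), 8.58 being the 10th percentile of all values, for the 12713 genes with at least 1 group mean above the median of 5.87. All 29 measured members passed that filter. The means of the 6 groups were modelled jointly in R 4.3.3 using limma 3.58.1 (functions lmFit and contrasts.fit, then eBayes allowing a trend), leaving 12 residual and 3.66 degrees of freedom from the prior. Tests of the 11 comparisons were two-sided, with Benjamini and Hochberg adjustment over the 12713 genes of each. The fit was also run on simulated arrays with known changes, drawn with independent noise for each gene and equal spread in all groups. Levels shared by many genes of an array and unequal group spreads were not simulated, so that run cannot speak to them. Replicates are called biological in the labels.

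The members, lists and comparisons were chosen with earlier results of these data known. Members called in at least 1 comparison are given array by array, the others by counts and single values, except that Insig1, Lipe and Hsd17b7, called in none, were also given array by array, chosen after their values were seen. Of the other lists, up to 3 called genes with the smallest adjusted p were named per list and comparison. Star, Lrp8 and the marker genes were named outside that rule, after their values were seen. The lists were 8 of pathway genes and 9 of cell type markers. Markers of oviduct epithelium (0 of 2 higher), smooth muscle (2 of 6 higher), luteal cells (1 of 4 lower) and blood (0 of 2 higher) are counted here for PMSG in Pik3cd+/- ovaries. Over all genes tested, 5.81% were called higher and 11.9% lower there. Leaving out single arrays gave 0 to 3 higher smooth muscle genes and 0 to 1 lower luteal genes. Each of these counts became 0 without any 1 untreated array of that genotype. Of the 4 luteal genes, 3 had a difference above 0. The analysis was repeated with 1 or 64 added before taking logs, without the filter or with the threshold at the 70th percentile, after quantile normalization, with only the compared groups, with replicate number as a block, with the most variable probe set of each gene, and leaving out every array in turn. Leaving out E2-treated Pik3cd-/- replicates 2 and 3 together, probe sets without an x or s suffix, the fit of further probe sets, and leaving out arrays for the other lists were chosen after seeing the data.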

Additional observations from a re-analysis of the deposited data

How the results depend on the processing

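Of the 41 calls of a member in a comparison, 0 changed direction under any alternative run. With a pseudocount of 1 or 64, the filter at the 70th percentile, quantile normalization or probe sets without an x or s suffix, 0 of the 41 ended. No filter, the replicate block and the probe set with the highest variance ended 3 each, the compared groups alone 15, leaving out E2-treated Pik3cd-/- replicates 2 and 3 together 12, and leaving out some single array 22. The count of members called for E2 in Pik3cd+/- ovaries was 0 and became 1 with the compared groups alone. That for the genotype difference after PMSG went from 0 to 1 in the same way. For the genotype difference after E2, 2 became 1 with no filter, 5 with the filter at the 70th percentile, 0 with the compared groups alone and 1 without the pair of E2 arrays. For PMSG in Pik3cd-/- ovaries, 4 became 2 with the compared groups alone. For PMSG against E2 in Pik3cd-/- ovaries, 12 became 7 with the compared groups alone and 2 without the pair. The causes of these moves were not tested. The fits with the compared groups alone or without the pair used fewer arrays. Those with another filter used all 18 arrays over another set of genes. Leaving out each array gave 6 to 13 calls for PMSG and 8 to 15 for PMSG against E2 in Pik3cd+/- ovaries, 0 to 7 and 5 to 14 in Pik3cd-/- ovaries, 0 to 4 for the genotype difference after E2, and 0 in the other 6 comparisons. Member medians over the alternatives ran from 0.26 to 0.48 for PMSG in Pik3cd+/- and 0.23 to 0.33 in Pik3cd-/- ovaries. The replicate numbers in the labels did not pair the arrays: residual correlations were -0.34 to 0.34 for 45 same-number pairs and -0.43 to 0.42 for 90 others, and 5 of 18 arrays correlated best with their own number. With the replicate block the counts were 9 and 4 for PMSG in Pik3cd+/- and Pik3cd-/- ovaries, 13 and 11 for PMSG against E2, 1 for the genotype difference after E2 and 0 in the other 6 comparisons. Low signals near the pseudocount have differences drawn towards 0.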
